A study of Mus musculus with 4 samples.

Results

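The heavy and light chains of MHC class I molecules, and the proteins that load peptide onto them, were followed in mouse peritoneal macrophages with and without Pparg. The set had 10 genes, taken by symbol from the array's annotation: the classical heavy chain genes H2-K1 and H2-D1, the non-classical heavy chain genes H2-Q7, H2-T23, H2-M3 and H2-M2, the light chain gene B2m, the transporter genes Tap1 and Tap2, and the tapasin gene Tapbp. Of 10649 probe sets with values, 15 were annotated to 1 of these genes alone and covered 8 of the 10, out of 7577 genes that had a probe set of their own. A further 5 probe sets were annotated to a member together with other genes, and H2-Q7 and H2-T23 were read by such shared probe sets alone. In addition, 1 probe set of Tap1 was blank on every array. Probe sets are the groups of short oligonucleotides by which an Affymetrix array reads a transcript.

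The comparison was between 2 arrays labelled PPARg WT and 2 labelled PPARg KO, called WT and KO here. Pparg encodes the nuclear receptor PPARγ, which binds lipids and regulates transcription. All mice shared a background of mixed strains, 129/SV and C57BL/6, and their age, the deleted part of Pparg and any Cre driver are not given in the sources used here. Every animal received 2.5 ml of 3% thioglycollate, an irritant that draws monocyte-derived macrophages into the peritoneal cavity, and was lavaged after 3 days. The cells were plated in 10% serum, washed 5 h later and then held in 0.5% serum for 24 h without ligand or stimulus. Whether the arrays of a genotype represent separate mice is not stated, and replicate 2 of each genotype is described with the ending "dup". The p-values therefore measure the spread between arrays of one label, which could be technical.

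A class I molecule is a membrane-bound heavy chain held by the light chain β2-microglobulin, with a short peptide in its groove. Proteasomes cut cytosolic proteins into such peptides, the TAP1 and TAP2 subunits together pump them into the endoplasmic reticulum, and tapasin holds the empty class I molecule next to the transporter until a peptide fits. Nearly all nucleated cells carry class I for inspection by CD8 T cells, and interferon raises the transcription of most genes in this pathway.

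The start regions of 5 members are shown first, because the classical chains, the light chain, the transporter and H2-M2 are the genes whose values are set side by side below. Each is the stretch of 200 bases before the annotated RefSeq start on GRCm38.p6, read 5′ to 3′ along the gene. For H2-K1, which has 2 annotated starts, the more downstream was taken. Capitals mark matches, on either strand, to 6 motifs: the core of the interferon-stimulated response element, the gamma-activated site TTCNNNGAA, the NF-kB site of class I enhancer A, the cAMP response element core TGACG, the NF-Y box CCAAT, and the stretch TTTCACTTC.
B2m, chr2:122147487-122147686, plus strand: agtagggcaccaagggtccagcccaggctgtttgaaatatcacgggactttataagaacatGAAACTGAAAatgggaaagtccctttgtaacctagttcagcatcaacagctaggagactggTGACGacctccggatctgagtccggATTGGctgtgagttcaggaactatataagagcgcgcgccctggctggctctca
H2-K1, chr17:34000334-34000533, minus strand: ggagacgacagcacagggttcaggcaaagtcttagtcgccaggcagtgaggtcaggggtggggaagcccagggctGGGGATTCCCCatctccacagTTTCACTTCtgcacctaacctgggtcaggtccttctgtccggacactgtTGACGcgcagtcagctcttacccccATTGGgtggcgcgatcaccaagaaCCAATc
H2-D1, chr17:35262894-35263093, plus strand: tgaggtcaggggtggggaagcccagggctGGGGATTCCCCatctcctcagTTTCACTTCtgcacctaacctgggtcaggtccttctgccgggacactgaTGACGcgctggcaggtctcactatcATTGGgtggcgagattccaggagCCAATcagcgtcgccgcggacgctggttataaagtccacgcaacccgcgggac
Tap1, chr17:34187356-34187555, plus strand: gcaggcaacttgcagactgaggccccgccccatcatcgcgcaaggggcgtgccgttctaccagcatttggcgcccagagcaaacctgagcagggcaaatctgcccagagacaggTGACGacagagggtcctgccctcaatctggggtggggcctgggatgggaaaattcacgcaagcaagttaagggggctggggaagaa
H2-M2, chr17:37483555-37483754, minus strand: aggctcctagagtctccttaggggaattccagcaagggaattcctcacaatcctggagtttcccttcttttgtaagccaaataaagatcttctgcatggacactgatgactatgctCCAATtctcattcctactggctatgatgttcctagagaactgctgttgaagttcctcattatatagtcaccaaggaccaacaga

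The motifs were counted in windows from 250 bases before to 50 after each start, which were at hand for 9 member genes and for 32851 starts in all; Tap2 had no window. The NF-kB site of enhancer A was found in H2-K1 and H2-D1, against 0.0487% of all windows. That motif is the site of the class I enhancer itself, so its presence in these class I genes is not an independent find. The interferon-stimulated response element core was found in B2m and H2-T23 (3.44% of all windows) and the gamma-activated site in H2-M3 (8.3%). That core was searched as a fixed pattern, so a window without a match can still hold a variant of the element. The cAMP response element core was present in 7 of the 9 genes (20.8% of all windows) and the NF-Y box in 9 of 9 (37.4%). The complete cAMP response element, TGACGTCA, which contains that core, was in 0 of 9 (1.79%), and the direct repeat bound by PPAR with its partner RXR was in 0 of 9 (0.0396%).

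The stretch TTTCACTTC was added after the sequences had been read. It lies in H2-K1, H2-D1, H2-Q7 and H2-M3, against 0.505% of all windows. Whether this stretch is a variant of the interferon-stimulated response element was not tested. The windows of H2-K1 and H2-D1 share an unbroken run of 47 bases, and those of H2-D1 and H2-M2 a run of 13. The run shared by H2-K1 and H2-M2 was 8 bases, beside 8 for H2-K1 with B2m and 10 for H2-K1 with Tap1. A match is a description of the letters and not evidence of binding in these cells.

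**Figure D1:**
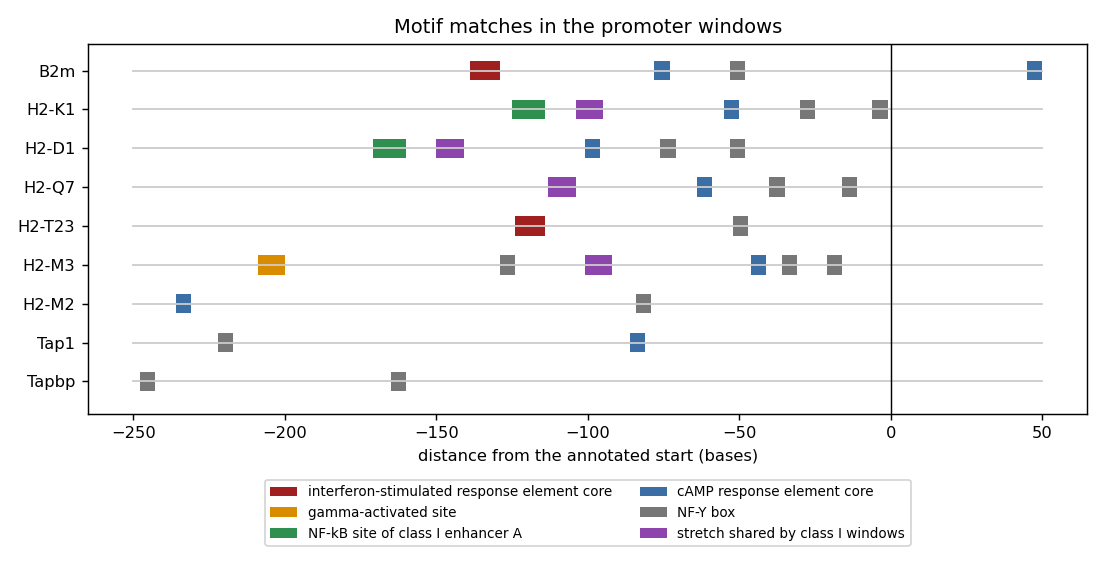
Positions of motif matches along the promoter windows of 9 member genes; the x axis is the distance in bases from the annotated start, each line is 1 gene and each block 1 match on either strand. H2-K1 and H2-D1 carry the same order of enhancer A site, shared stretch, cAMP response element core and NF-Y box, while of the motifs searched H2-M2 and Tap1 carry only the cAMP response element core and the NF-Y box.

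The 4 arrays had similar overall signal, with medians from 136.7 to 142.0 intensity units, and all 8 macrophage markers exceeded the median of the 12 antisense controls on every array. The Pparg probe set read 61.1 and 73.1 in WT and 43.0 and 40.6 in KO. Each of these signals was under the median antisense control, which makes this dim probe set a weak check of the labels (log2 difference -0.52, adjusted p = 0.00012 with no signal filter). Differences are KO minus WT in log2(signal + 16), folds are on that same scale and understate the change of dim probe sets, and adjusted p-values come from limma with Benjamini-Hochberg adjustment over 6389 probe sets. Errors are SD with n = 2 arrays.

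Among the 10 genes, the RNA for the class I-like chain H2-M2 fell 2.15-fold in KO, and that for both transporter subunits, Tap1 and Tap2, fell by smaller amounts. The RNA for the classical chains, for β2-microglobulin, for H2-M3 and for tapasin was lower on both KO arrays than on either WT array, but by amounts that did not pass the test. Of the 14 member probe sets tested, 3 passed limma's test as lower and 0 as higher, where 2.58% of all tested probe sets passed as lower and 1.05% as higher. Both KO arrays lay below both WT arrays for 14 of 14, where 21.1% of all tested probe sets did so. Probe sets of 1 gene, and of near-identical genes, are not independent of each other.

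The median difference over the 14 was -0.21, beside -0.02 over all tested probe sets. Of the 20 member probe sets with values, counting the shared and the dim ones, 20 had the lower mean in KO. Among all tested probe sets 57.9% did so. KO replicate 1 gave the lowest signal of the 4 arrays for 18 of the 20 member probe sets. The share of all probe sets with that array lowest was not counted. KO replicate 2 also read higher than KO replicate 1 among bright probe sets at large: in the brightest decile of those tested, with mean signals from 923.5 upward, the median gap between the KO arrays was 0.21 and that between the WT arrays 0.07. In that decile the median KO minus WT difference was 0.005, and 19.9% of probe sets had both KO arrays below both WT arrays. The part of this gap between the KO arrays in the members' values was not tested.

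**Figure D2:**
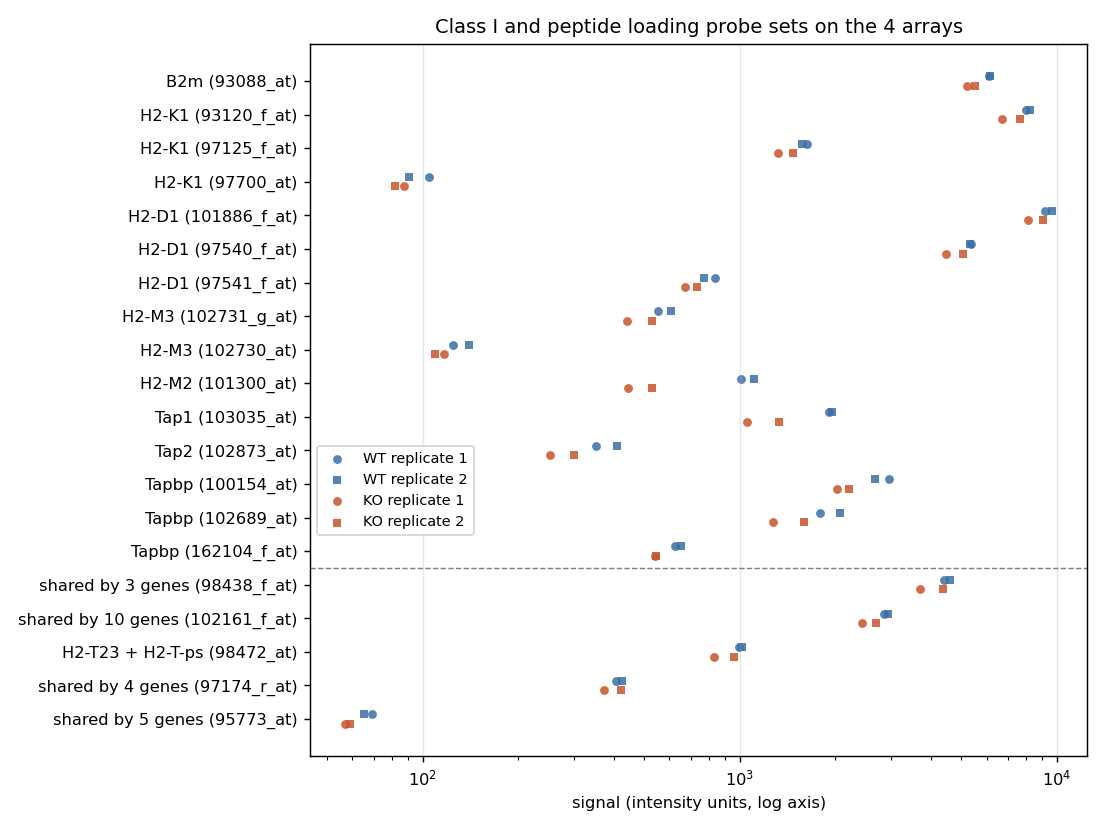
Signal of each member probe set (intensity units, log axis) on the 4 arrays; circles are replicate 1 and squares replicate 2, blue is WT and orange KO, and probe sets shared with other genes stand below the dashed line. The KO points lie left of the WT points for 19 of 20 probe sets, with the widest gap for H2-M2.

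H2-M2, a non-classical class I heavy chain gene at the far end of the H2 complex, fell the most of the members. Its probe set read 1009.6 and 1104.5 in WT and 442.7 and 528.2 in KO. Every KO signal was well under every WT signal, and the gap between genotypes was several times the gap within either. The mean went from 1057 ± 67.1 to 485.5 ± 60.46, a difference of -1.10 (SE 0.15, adjusted p = 6.32e-11), or 2.15-fold lower with a 95% interval from 1.75 to 2.63. By size of fall it ranked 18th among 6389 probe sets. The call was kept when any single array was left out, with adjusted p of at most 0.0189, and of all 14 alternatives run only the one that took the spread from the 4 values of each probe set alone ended it (adjusted p = 0.772).

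Tap1 and Tap2 encode both subunits of the peptide transporter. The Tap1 probe set read 1910.5 and 1951.7 in WT and 1050.0 and 1324.4 in KO. The WT arrays nearly coincided and the KO arrays stood apart from each other, both far below WT. The mean went from 1931 ± 29.13 to 1187 ± 194, a difference of -0.70 (SE 0.16, adjusted p = 0.000547), or 1.63-fold lower with a 95% interval from 1.31 to 2.02. Without WT replicate 1 the difference was -0.72 (adjusted p = 0.775), and without WT replicate 2 it was -0.69 (adjusted p = 0.913). With a single WT array, the KO pair supplied the whole estimate of spread, pooled over probe sets and not from Tap1 alone. In the brightest decile, which holds Tap1, the median gap between the KO arrays was 0.21. This limit applies to every fit here that leaves out a WT array.

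Tap2 was dimmer and fell less. It read 351.3 and 410.5 in WT and 251.8 and 300.7 in KO. The genotypes did not overlap, and the step from the lower WT array to the higher KO array was close to the step between replicates. The mean went from 380.9 ± 41.86 to 276.2 ± 34.58, a difference of -0.44 (SE 0.13, adjusted p = 0.0181), or 1.36-fold lower with a 95% interval from 1.14 to 1.62. This call did not hold without WT replicate 1 (-0.55, adjusted p = 0.373), WT replicate 2 (-0.33, adjusted p = 1.0) or KO replicate 1 (-0.32, adjusted p = 0.185), nor after centring each array on its median (adjusted p = 0.0594).

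Tapasin bridges the transporter and the waiting class I molecule. The Tapbp probe set 100154_at read 2948.3 and 2675.8 in WT and 2027.0 and 2217.4 in KO, a difference of -0.40 (SE 0.16, adjusted p = 0.186). The probe set 102689_at read 1793.8 and 2069.9 in WT and 1269.8 and 1592.6 in KO, a difference of -0.43 (SE 0.16, adjusted p = 0.129). Both were lower on each KO array and neither passed in this fit. The third Tapbp probe set, 162104_f_at, read 622.3 and 652.8 in WT and 541.9 and 544.9 in KO, and its difference of -0.22 was about the size seen for the class I chains (adjusted p = 0.821). After quantile normalization, which forces the 4 arrays onto one distribution of signals, the first pair passed at adjusted p of 0.000668 and 0.00134. They also passed without the intensity trend (0.0152 and 0.00633), with the replicate number as a block (0.00518 and 0.00144) and without KO replicate 2 (0.00567 and 0.000424), so their call depends on the setting.

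β2-microglobulin is the light chain common to every class I molecule. The B2m probe set read 6093.3 and 6130.6 in WT and 5222.3 and 5527.5 in KO. The WT arrays were almost equal and both KO arrays were lower. The mean went from 6112 ± 26.38 to 5375 ± 215.8, a difference of -0.19 (SE 0.14, adjusted p = 0.934), and the 95% interval of -0.47 to 0.10 allows a fall of at most 1.38-fold. Quantile normalization left the difference at -0.20 and moved the adjusted p to 0.0134.

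H2-K1 and H2-D1 present peptides to CD8 T cells and are nearly alike in sequence. Of their 6 probe sets, 5 carry the suffix that Affymetrix gives to probes matching several members of a sequence family, so the transcripts cannot be told apart with certainty. The brightest H2-K1 probe set, 93120_f_at, read 8007.7 and 8204.1 in WT and 6720.2 and 7675.4 in KO. The brightest H2-D1 probe set, 101886_f_at, read 9144.2 and 9659.6 in WT and 8118.7 and 9020.8 in KO. In both, KO replicate 2 came close to the WT arrays and KO replicate 1 lay further below.

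The differences of that pair were -0.17 (SE 0.14) for H2-K1 and -0.13 (SE 0.14) for H2-D1. Over the 5 tested probe sets of both genes the differences ran from -0.19 to -0.13, or 1.10-fold to 1.14-fold lower, and adjusted p from 0.951 to 1.0. The 95% intervals allow a fall of up to 1.42-fold. The next H2-D1 probe set, 97540_f_at, read 5378.8 and 5314.2 in WT and 4464.4 and 5045.7 in KO. The dimmer ones were alike: 97541_f_at for H2-D1 read 833.0 and 772.9 in WT and 670.8 and 733.8 in KO. For H2-K1, 97125_f_at read 1628.1 and 1568.4 in WT and 1320.2 and 1473.9 in KO.

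Quantile normalization put H2-K1 93120_f_at (adjusted p = 0.0121) and H2-D1 97540_f_at (adjusted p = 0.0175) past the threshold, and the other 3 tested probe sets of these genes did not pass under it. The single H2-K1 probe set without the family suffix, 97700_at, read 105.0 and 90.5 in WT and 87.1 and 81.9 in KO. That was below the signal filter and near the antisense controls, so it gives no useful level.

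H2-M3 binds peptides that begin with formyl-methionine, as bacterial and mitochondrial proteins do. Its brighter probe set, 102731_g_at, read 553.4 and 605.8 in WT and 439.7 and 528.3 in KO. KO replicate 2 lay just under WT replicate 1, and the difference of -0.26 (SE 0.14, adjusted p = 0.647) did not pass. The other, 102730_at, read 124.8 and 139.6 in WT and 116.7 and 109.0 in KO, a dim signal with a difference of -0.20 (adjusted p = 0.627).

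**Figure D3:**
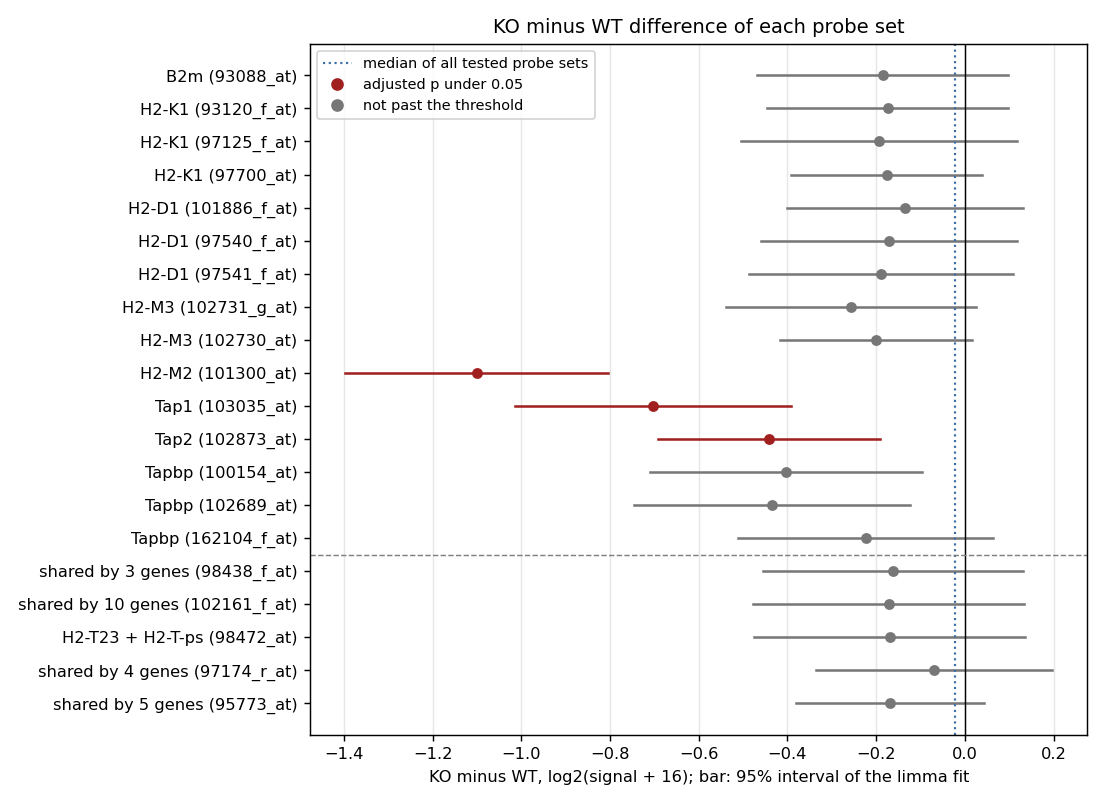
KO minus WT difference of each member probe set on the log2(signal + 16) scale with the 95% interval of the limma fit; red marks an adjusted p under 0.05, the dotted line is the median of all tested probe sets, and shared probe sets stand below the dashed line. H2-M2 (-1.10), Tap1 (-0.70) and Tap2 (-0.44) are past the threshold, and the B2m, H2-K1 and H2-D1 intervals overlap 0. The intervals are not adjusted for the number of probe sets. Those of Tapbp 100154_at (-0.71 to -0.10) and 102689_at (-0.75 to -0.12) exclude 0 although neither passed.

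The shared probe sets hold what these arrays say about H2-T23 and H2-Q7. H2-T23 encodes Qa-1, which presents signal peptides of other class I chains to NK cell receptors. The probe set common to H2-T23 and the pseudogene H2-T-ps, 98472_at, read 994.9 and 1015.0 in WT and 826.6 and 961.6 in KO, with a difference of -0.17 (95% interval -0.47 to 0.14). H2-Q7 encodes a Qa-2 chain that can be anchored in the membrane by a lipid. The brightest probe set that lists it, 98438_f_at, shared with H2-Q9 and H2-Q5, read 4398.4 and 4608.8 in WT and 3696.3 and 4378.5 in KO, with a difference of -0.16 (95% interval -0.46 to 0.13).

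In both, KO replicate 2 was nearly at the WT level and KO replicate 1 well below it. The probe set 97174_r_at, shared by H2-Q7, H2-Q9, H2-Q10 and H2-K1, read 407.7 and 426.1 in WT and 372.0 and 422.6 in KO. It was the single member probe set whose genotypes overlapped, and its difference of -0.07 became 0.02 without KO replicate 1. The probe set 102161_f_at, which lists 10 genes including H2-T23, H2-K1 and H2-D1, read 2850.2 and 2923.7 in WT and 2434.9 and 2692.8 in KO (-0.17). The probe set 95773_at, which lists 5 genes including H2-Q7 and H2-D1, was dim, with 69.1 and 65.2 in WT and 57.0 and 58.9 in KO. After quantile normalization 98438_f_at passed (adjusted p = 0.0175). Of the 4 shared probe sets tested, 0 passed as the data were deposited and the median difference was -0.17; unadjusted p was 0.27 or higher for each.

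To set the members against each other, the log2 value of B2m was subtracted from that of the others within each array, and the change of these ratios between genotypes was read. H2-M2 relative to B2m stood at -2.58 and -2.46 in WT and -3.51 and -3.35 in KO, a difference of -0.92. Tap1 relative to B2m stood at -1.67 and -1.64 in WT and -2.30 and -2.05 in KO, a difference of -0.52. The corresponding differences were -0.26 for Tap2, -0.22 for Tapbp and -0.07 for H2-M3, and the genotypes overlapped for H2-M3 alone. Each gene was read by its brightest probe set, which for Tapbp was 100154_at. Of the Tapbp probe sets not used, 102689_at differed by -0.434 between genotypes and 162104_f_at by -0.224, beside -0.185 for B2m. With the mean of the H2-K1 and H2-D1 probe sets in the place of B2m the order was the same, from -0.93 for H2-M2 to -0.08 for H2-M3. With 2 arrays against 2, the exact two-sided permutation test over its 6 splits cannot go below p = 0.333, which is what 8 of these 10 relations gave (0.416 after Benjamini-Hochberg adjustment over the 10), so the test cannot call these gaps.

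The other genes of the pathway were then read by role. Of 109 listed genes, 70 had values and 54 were tested, each by its brightest probe set. Of the 54, 7 passed as lower and 0 as higher, where 2.72% of all 5001 tested genes passed as lower and 1.06% as higher. At an unadjusted p under 0.05 limma gave 1 higher gene, Hfe, a dim class I-fold chain that limits iron uptake (adjusted p = 0.0865). The median difference of the 54 was -0.08, beside -0.02 over all tested genes. The lower mean was in KO for 40 of the 54, against 57.9% of all tested probe sets.

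In peptide supply, 1 of 12 tested genes passed and 11 of 12 had the lower mean in KO, against 57.9% of all tested probe sets. That gene was Psmb8, a catalytic subunit of the immunoproteasome, which cuts peptides suited to class I. It read 3063.5 and 2958.3 in WT and 2014.4 and 2275.0 in KO, with the genotypes well apart, a difference of -0.49 (SE 0.16, adjusted p = 0.0496). It lay at the threshold: adjusted p was 1.0 without WT replicate 1 or WT replicate 2, and 0.164 after median centring. Psmb10, the brightest of the role that did not pass and also an immunoproteasome subunit, read 3179.1 and 3599.5 in WT and 2404.2 and 3025.8 in KO (-0.33, adjusted p = 0.427). Psmb9, the remaining immunoproteasome subunit, was chosen after its values were seen, because it lies next to Tap1. It read 1005.7 and 1134.6 in WT and 687.4 and 899.7 in KO (-0.43, adjusted p = 0.112). Psmb9 passed after quantile normalization (adjusted p = 0.00343), without the intensity trend (0.00633), with the replicate number as a block (0.000781) and without KO replicate 2 (0.00046).

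In folding and export from the endoplasmic reticulum, 1 of 12 passed. Bcap31, a membrane protein that escorts class I and other cargo out of that compartment, read 963.9 and 1115.1 in WT and 660.5 and 797.7 in KO. Its difference was -0.50 (SE 0.15, adjusted p = 0.032), without overlap. It missed the threshold without WT replicate 1 (adjusted p = 0.967), WT replicate 2 (1.0) or KO replicate 1 (0.145), and after median centring (0.108). Hspa5, the general chaperone BiP and the brightest that did not pass, read 1960.8 and 1663.2 in WT and 1538.4 and 1762.6 in KO, with overlap between genotypes.

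Among transcription factors of class I genes, 2 of 9 passed, and their falls were close in size to that of H2-M2. Irf1, an interferon-induced activator that binds class I and Tap1 promoters, read 2591.5 and 2630.2 in WT and 1221.4 and 1460.1 in KO, a difference of -0.96 (SE 0.16, adjusted p = 2e-07). Irf8, a related factor of the myeloid lineage, read 2304.8 and 2607.4 in WT and 1142.6 and 1344.7 in KO, a difference of -0.97 (SE 0.16, adjusted p = 1.22e-07). For both, each KO array was far below each WT array. Without WT replicate 1 adjusted p was 0.165 for Irf1 and 0.0761 for Irf8, and without WT replicate 2 it was 0.214 and 0.298, at differences of -0.89 or larger in size. Rela, an NF-kB subunit and the brightest that did not pass, read 1240.7 and 1331.9 in WT and 1041.8 and 1185.8 in KO (-0.21).

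Of the interferon receptors and their kinases, 1 of 7 passed. Jak2, a kinase on the interferon gamma receptor, read 177.6 and 181.4 in WT and 104.0 and 129.7 in KO, a difference of -0.56 (SE 0.11, adjusted p = 2.6e-05). The KO signals were close to the antisense control medians of 111.4 and 106.7, which limits what can be read of the size of the fold. Leaving out any single array kept this call, with adjusted p of at most 0.0286. Jak1, the brightest that did not pass, read 749.2 and 779.5 in WT and 621.6 and 709.7 in KO (-0.20).

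Among other chains with a class I fold, 1 of 4 passed. Procr, the endothelial protein C receptor, read 457.3 and 467.4 in WT and 249.7 and 323.8 in KO, a difference of -0.67 (SE 0.13, adjusted p = 3.14e-05). The call was lost without WT replicate 1 (adjusted p = 0.0969) or WT replicate 2 (0.165). Fcgrt, the neonatal Fc receptor, read 243.7 and 198.0 in WT and 260.0 and 203.5 in KO, so replicates differed more than genotypes did.

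Of the other H2 class I genes with a probe set annotated to them alone, 1 of 9 passed and their median was -0.15. The lower mean was in KO for 9 of 9, against 57.9% of all tested probe sets. The probe sets of H2-D4, H2-K2, H2-Q4, H2-Q5, H2-T18 and H2-Bl carry the family suffix, so the 9 are not independent readings. H2-T24 read 133.2 and 155.8 in WT and 102.6 and 112.4 in KO, a difference of -0.38 (SE 0.11, adjusted p = 0.0227). Its KO signals were at the level of the antisense controls. It missed the threshold without WT replicate 1 (adjusted p = 0.0935), WT replicate 2 (1.0) or KO replicate 1 (0.194), and after quantile normalization (0.0623). The 5 probe sets shared by several class I genes outside the member set differed among themselves, and 0 passed limma's test, with 3 at an unadjusted p under 0.05. The 2 common to H2-T9, H2-T10 and H2-T22 differed by -0.43 and -0.38 between genotypes (adjusted p = 0.129 and 0.258), and 1 common to H2-K2 and H2-Q2 by -0.36 (adjusted p = 0.332). The 2 common to H2-T3 and H2-T18 overlapped between genotypes, at -0.0005 and, below the signal filter, 0.0028. H2-K2, the brightest that did not pass, read 3265.2 and 3161.1 in WT and 2801.0 and 3069.4 in KO (-0.13).

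Of the receptors that bind class I, only Pirb, an inhibitory receptor of myeloid cells, was bright enough to test. It read 711.8 and 773.4 in WT and 831.6 and 1008.2 in KO, higher on both KO arrays by 0.30, and did not pass.

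**Figure D4:**
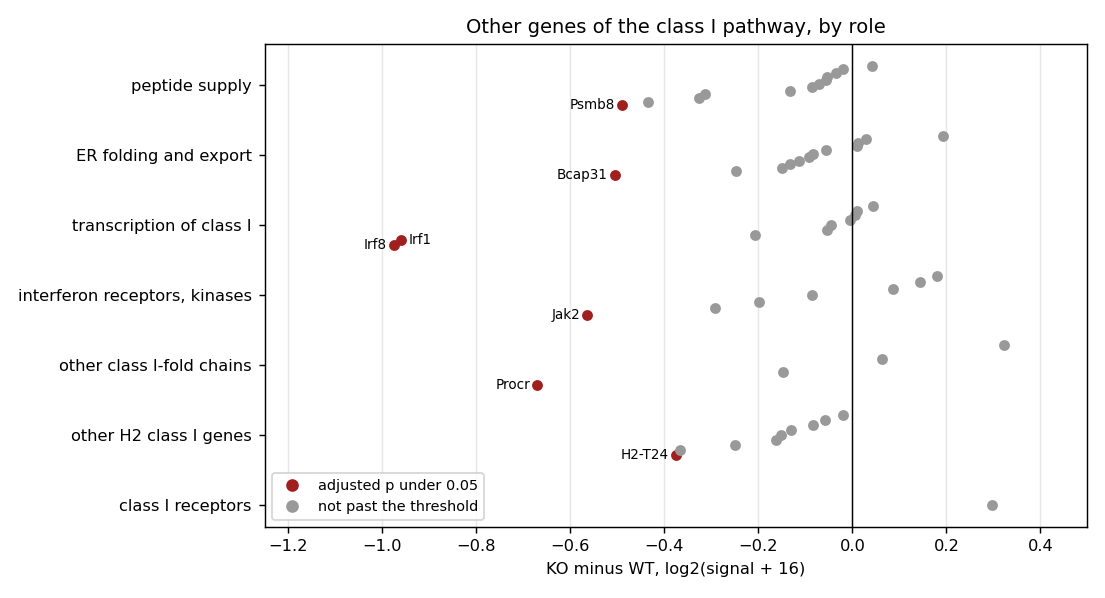
KO minus WT difference on the log2(signal + 16) scale for 54 tested genes of the class I pathway outside the member set, by role; each point is 1 gene at its brightest probe set and red marks an adjusted p under 0.05. The 7 red points all lie below 0, with Irf8 (-0.97) and Irf1 (-0.96) furthest from it.

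B2m lies on chromosome 2 and Tapbp just beyond the H2-K1 end of the H2 complex. The other member genes lie from H2-K1 at one end of that complex to H2-M2 at the other, and 78 of the 283 annotated genes between these ends were tested. Among them 12 passed as lower, with a median of -0.07. Of all 5001 tested genes, 2.72% passed as lower, and their median was -0.02. The class I genes, with 2 of 10 lower and a median of -0.21, stood between the class II genes (5 of 7, median -0.91) and the 57 genes of other kinds (2 lower, Cfb and Tnf, at -0.43 and -0.44, median -0.04). Of the 10 class I genes, H2-K1, H2-D1, H2-Q4, H2-Q5 and H2-Bl were read by probe sets with the family suffix, so the 10 are not independent readings. Psmb9, Tap1, Psmb8 and Tap2 are neighbours inside the class II segment, and 3 of these 4 passed. The largest falls outside class I were H2-DMa (-0.98), H2-Aa (-0.92), H2-Ab1 (-0.91) and H2-Eb1 (-0.91), the peptide loader and chains of class II.

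**Figure D5:**
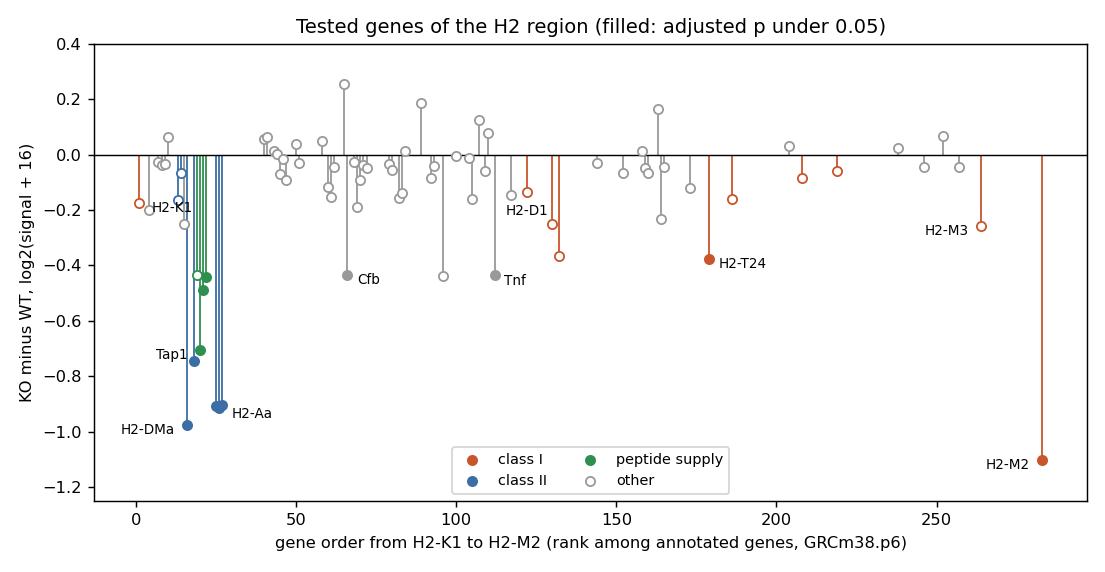
KO minus WT difference on the log2(signal + 16) scale of 78 tested genes of the H2 complex in chromosomal order from H2-K1 to H2-M2 (x axis: rank among annotated genes); filled points have an adjusted p under 0.05 and colours give the class. The class II and transporter segment near the H2-K1 end and H2-M2 at the opposite end hold the largest falls, and H2-K1 and H2-D1 lie near 0 by comparison.

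Class I is carried by all the cell types a lavage can hold, and in bulk RNA fewer cells of a type and less RNA per cell cannot be told apart. The summed signal of 8 macrophage markers was 20530 and 21060 in WT and 19740 and 22520 in KO, and 1 of 8, Mertk, passed as lower. Of 11 T and NK cell markers with values, 9 were below the antisense median on every array, among them Cd3d, Cd3g, Cd8a and Klrd1. The other 2, Cd3e and Cd4, were above it on every array, and Cd4 was also above the highest antisense control on every array. These 2 were the ones tested, and 0 of 2 passed. B cell markers summed to 1405 and 1472 in WT and 1375 and 1427 in KO (0 of 6 passed). Of the 7 with values, 6 were above the antisense median on every array and 4 above the highest antisense control. Dendritic cell markers summed to 1658 and 1648 in WT and 1459 and 1587 in KO (0 of 4 passed, median -0.10). Of the 6 with values, 4 were above that median on every array and 3 above the highest control.

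Fibroblast and mesothelial markers summed to 2069 and 2034 in WT and 2575 and 2915 in KO. The 5 tested were the fibroblast markers Col1a1, Col1a2, Col3a1, Dcn and Pdgfra, and each had the higher mean in KO. Of these 1, Dcn, passed as higher, with means of 588.6 in WT and 1002 in KO. The mesothelial markers Msln, Krt19 and Wt1 were below the antisense median on every array, and Upk3b was above it on 2. For neutrophils 0 of 3 tested markers passed, for eosinophils 0 of 1 and for mast cells and basophils 0 of 2. At an unadjusted p under 0.05 limma gave 2 of the 8 macrophage markers, Mertk and Adgre1 (Adgre1 at -0.32, lower on both KO arrays, adjusted p = 0.459). At that level limma also gave 4 of the 5 tested fibroblast markers and 1 of the 3 neutrophil markers. It gave 0 of the T and NK cell, B cell, dendritic cell, eosinophil or mast cell markers. The part of these other cells in the class I values was not tested.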

How the data were processed

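The values are 1 linear intensity per probe set and array, as the authors deposited them for 1-colour Affymetrix arrays; no summary of probes, background correction or scaling is given in the sources used here. The table has 12488 rows, among them 1780 without a value on any array and 59 controls. The platform annotation gave 1 gene for 9389 of the remaining 10649 probe sets, several for 341 and none for 919.

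KO was compared with WT with limma 3.58.1 in R 4.3.3 (lmFit, eBayes with an intensity trend, two-sided) on log2(intensity + 16), over the 6389 probe sets whose mean exceeded the 40th percentile, a signal of 111.38, with Benjamini-Hochberg adjustment and a threshold of 0.05. Array medians of the log2 values ran from 7.255 to 7.304, so no further scaling was applied. With an infinite estimate of prior degrees of freedom, the trend alone set the spread at each signal, and 2 arrays a genotype limit the precision. H2-K1 97700_at, the shared 95773_at and Pparg lay below the filter and were taken from the fit without it.

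In simulated data, 100% of changes of 1 on the log2 scale and 81.4% of changes of 0.5 were recovered, with 2 false calls. The simulated noise was independent between arrays, with a spread set by signal alone, as the fit assumes. The gap between the KO arrays at high signal and the correlated replicate gaps were not simulated. These rates therefore need not hold for the real arrays. Every member probe set is named, each pathway gene past the threshold with the brightest of its role that was not, and up to 4 genes of the H2 complex outside class I; Cfb, Tnf, Psmb9, Hfe, Mertk, Adgre1, Dcn and the 5 shared class I probe sets outside the member set were named after their values were seen. The members, gene lists and motifs were chosen with earlier results of these data known. Promoter windows are RefSeq's on GRCm38.p6; the arrays come with no named build. Plots were made in Python 3.11.15 with matplotlib 3.10.9. Alternatives changed the scaling (quantile normalization, median centring), the filter (none, 60th percentile), the pseudocount (1, 64) and the variance model (no trend, robust, no moderation), added the replicate number as a block, or left out each array in turn.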

Additional observations from a re-analysis of the deposited data

How the results depend on the processing

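The median difference of the member probe sets stayed between -0.27 and -0.18 under all 14 alternatives, and of 361 values for single probe sets 309 kept their direction and side of the threshold, 35 lost the threshold, 16 gained it and 1 reversed. The counts moved more than the differences did, and the cause was not tested. Member probe sets lower in KO numbered 3, and 8 after quantile normalization, 5 without the intensity trend, 5 with the replicate number as a block, 0 without moderation and 1 to 5 when an array was left out. Of the other pathway genes 7 were lower, and 11 after quantile normalization, 12 with the block, 0 without moderation and 1 to 12 without an array. Higher pathway genes numbered 0, and 2 after quantile normalization, 1 after median centring and 2 with the block. Over all probe sets 165 were lower (254 after quantile normalization, 341 with the block, 0 without moderation, 50 to 287 without an array) and 67 higher (172, 145, 0 and 7 to 130 in the same order, and 44 above the 60th percentile). Without moderation 3 member probe sets had an unadjusted p under 0.05, against 5. The probe set 97174_r_at ran from -0.16 to 0.02 when an array was left out, and reversed to 0.0192 without KO replicate 1. The labels do not say that a replicate number marks a shared batch; over tested probe sets the gap between replicates correlated between genotypes (r = 0.416, across probe sets, which are not independent), so the block is given as an alternative only. Signals near the antisense controls, as for Pparg, H2-K1 97700_at, 95773_at, H2-T24 and the Jak2 KO arrays, limit what can be read.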
